A study of Mus musculus with 24 samples.

Results

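Hearts of mice taken 72 h after MCAO, a surgical block of the middle cerebral artery that models ischemic stroke, were compared with hearts taken 72 h after a sham operation. The comparison held 12 of the 24 arrays of the series, 6 labelled as MCAO and 6 as sham, chosen by their titles; the free-text descriptions give 24 h for these arrays, whereas title, source and time field give 72 h or 3 days. All animals were C57BL/6J wild-type mice of 8 weeks, and the labels of both groups name the same age, strain and free access to food and water. The injury lay in the brain, and the heart was the tissue measured. The question was which heart transcripts differ between stroke and sham animals at this time. Total RNA was measured on Affymetrix arrays and 24011 named genes entered the comparison as the log2 values deposited, where a difference of 1 is 2-fold. Hearts mix cell types, so fewer cells of a type and less RNA per cell cannot be told apart. The labels do not say that each array is a separate animal, and the p-values then measure only the spread between these samples.

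The adult mouse ventricle runs mainly on the fast alpha myosin heavy chain encoded by Myh6, and the slow beta chain encoded by Myh7 is the fetal form that returns under mechanical load, low thyroid hormone or disease. Cardiomyocytes draw most of their energy from fatty acids oxidised in mitochondria, which keep ribosomes of their own for the few proteins their genome encodes. Glucocorticoids, the adrenal stress hormones, act in the heart through the receptor encoded by Nr3c1, and the enzyme encoded by Hsd11b1 regenerates active hormone inside cells. A gene is called here when its adjusted p in limma (Benjamini-Hochberg over all genes) was under 0.05.

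The tissue label held against its markers. The 14 cardiomyocyte markers had sham means from 11.32 to 13.49 log2, near the top of the scale. As a yardstick for low values, 95% of the 1350 odour and pheromone receptor genes on the array, which belong to the nose, had sham means under 3.93. Under that level in sham hearts lay 12 of 14 neutrophil, 6 of 8 natural killer cell, 6 of 9 skeletal muscle, 4 of 6 mesothelial and 5 of 7 lung or thymus markers. Atrial markers varied from array to array within both groups, as Sln, a regulator of the atrial calcium pump, ranged from 3.57 to 10.12 in sham and from 3.66 to 9.90 in MCAO hearts. The summed level of the 12 atrial markers ran from 11.79 to 13.22 in sham and from 12.15 to 13.40 in MCAO hearts, so the groups overlapped. Each MCAO array correlated with the mean of the rest of its group at 0.9956 to 0.9966 across genes, whereas sham replicates 2 and 3, at 0.9924 and 0.9915, lay below the other 4 sham arrays.

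At 72 h, 735 genes rose and 675 fell, which is 5.87% of the genes tested (3.06% up and 2.81% down). Changes of at least 2-fold made up 31 of the rises and 19 of the falls, and the median size of a called change was 0.40 on the log2 scale. The groups did not overlap for 773 of the called genes, against 849 (3.54%) of all genes tested, 1.77% with MCAO higher and 1.77% with MCAO lower. The median log2 change over all genes was 0.0015. Among rises the count went from 735 to 484 without MCAO replicate 5 and to 447 without sham replicates 2 and 3 together. In a fit of all 24 arrays, in which the 24 h groups add to the estimate of the spread, 565 genes passed. Of the 115 called genes named here 21 did not pass in that fit, and each is given with its adjusted p there.

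**Figure D1:**
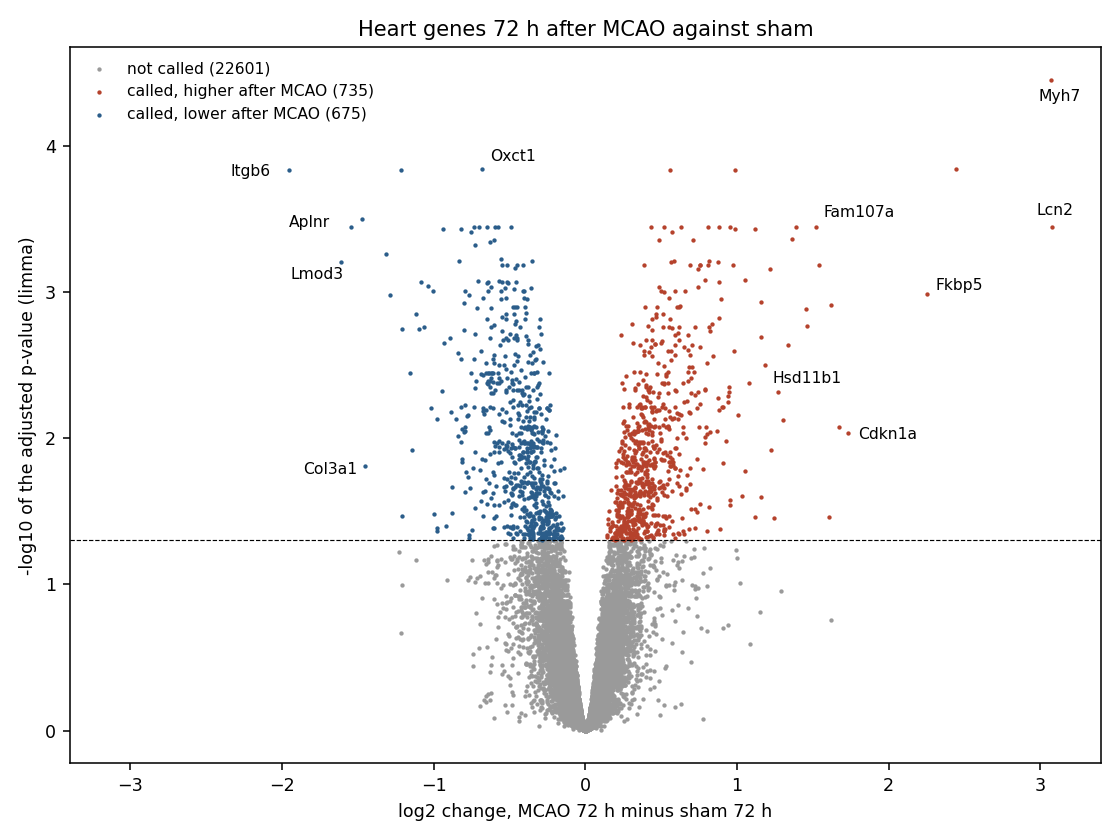
Each point is 1 of 24011 genes, with the log2 change (MCAO minus sham, 72 h) on the horizontal axis and -log10 of limma's adjusted p on the vertical axis; the dashed line marks an adjusted p of 0.05. Myh7 and Lcn2 lie apart on the right, and Itgb6 is farthest to the left among the called genes.

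The slow myosin chain rose and the fast chain, by a smaller amount, fell. Myh7 ranged from 8.16 to 9.33 (median 8.58) in the 6 sham hearts and from 11.20 to 12.16 (median 11.84) in the 6 MCAO hearts, so the lowest MCAO heart lay far above the highest sham heart. The difference was 8.38-fold (log2 change 3.07, SE 0.21, adjusted p = 3.56e-05). Myh6 ranged from 12.78 to 12.94 (median 12.87) in sham and from 12.44 to 12.78 (median 12.61) in MCAO hearts, with 1 MCAO heart reaching the sham range. It fell by 0.27 (SE 0.06, adjusted p = 0.0141), a call that ended without sham replicates 2 and 3 together and in the fit of all 24 arrays (adjusted p = 0.176). Mhrt, a long noncoding RNA transcribed from the same locus in the direction opposite to Myh7, ranged from 11.34 to 11.61 (median 11.44) in sham and from 10.54 to 11.03 (median 10.77) in MCAO hearts. It fell by 0.70 (SE 0.07, adjusted p = 0.00036) with no overlap of the groups. Myh6 and Myh7 encode nearly alike proteins, and which parts of the transcripts the probes read was not analysed here.

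The start regions of both myosin genes are shown because the 2 genes lie side by side. The sequences are the 250 bases before a start, 5′ to 3′ on the gene's strand, from RefSeq (GRCm38.p6). They lie at chr14:54994627-54994876 for the upstream start of the 2 listed for Myh7 and at chr14:54966608-54966857 for Myh6, both on the minus strand. Capitals mark the letters CATTCC or their reverse complement, the core of the muscle MCAT element.
Myh7: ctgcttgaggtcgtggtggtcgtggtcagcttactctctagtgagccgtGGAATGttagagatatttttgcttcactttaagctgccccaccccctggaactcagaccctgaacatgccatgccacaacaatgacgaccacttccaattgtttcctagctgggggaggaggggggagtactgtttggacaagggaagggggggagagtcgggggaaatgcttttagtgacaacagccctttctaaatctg
Myh6: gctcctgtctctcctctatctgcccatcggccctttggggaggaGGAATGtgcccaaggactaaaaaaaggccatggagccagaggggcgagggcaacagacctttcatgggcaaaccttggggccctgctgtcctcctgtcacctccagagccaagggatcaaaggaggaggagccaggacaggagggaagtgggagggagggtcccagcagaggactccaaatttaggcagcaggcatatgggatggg
Both windows held the motif, as did 13.5% of the 18112 measured genes with such a window, 83 of 592 genes that rose and 69 of 552 that fell.

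Each myosin gene also carries a microRNA in an intron, and a relative of both sits in Myh7b. Their mature sequences (RefSeq, GRCm38.p6) are shown because the seeds, bases 2 to 8 in capitals, are shared within this group: the seeds of miR-208a-3p and miR-208b-3p were identical and that of miR-499-5p differed from them in 1 base.
miR-208a-3p: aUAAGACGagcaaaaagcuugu
miR-208b-3p: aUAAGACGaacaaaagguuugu
miR-499-5p: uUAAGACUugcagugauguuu
The rows named for these microRNA genes did not follow Myh7. Mir208a, inside Myh6, had a sham median of 5.86 and an MCAO median of 5.64 (log2 change -0.18, SE 0.19, adjusted p = 0.717). Mir208b, inside Myh7, had medians of 3.89 and 3.64 (change -0.21, SE 0.08, adjusted p = 0.148), and Mir499 medians of 3.36 and 3.30, both near the level of the receptor genes. Arrays of this kind read precursor transcripts, and mature microRNA levels were not measured.

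Of 15 thick filament and M-band genes, Myh7 and Myh6 included, 2 rose and 3 fell, against 3.06% up and 2.81% down over all genes. The count of falls was 1 without MCAO replicate 2 or 5 and 0 in the fit of all 24 arrays. Myom2, which encodes the M-band protein myomesin 2, ranged from 9.71 to 10.72 in sham and from 11.20 to 11.46 in MCAO hearts, with no overlap, and rose by 1.05 (SE 0.13, adjusted p = 0.000828). Of 33 thin filament and Z-disc genes 2 rose and 2 fell, and 1 fell without MCAO replicate 2 or 5 or sham replicate 4 or 5 and in the fit of all 24 arrays. Lmod3, a leiomodin that nucleates actin filaments in muscle, fell from a sham range of 7.89 to 8.63 to an MCAO range of 6.04 to 7.17 (log2 change -1.61, SE 0.19, adjusted p = 0.000624). The intermediate filament gene Des (0.32, SE 0.07) and Nrap (0.44, SE 0.08), a scaffold at sites of myofibril assembly, rose. Acta1, the skeletal alpha actin that is also re-expressed in stressed hearts, fell by 0.98 (SE 0.26, adjusted p = 0.0411), a call that ended without any 1 of 8 arrays and in the fit of all 24 (adjusted p = 0.08). The troponin genes Tnnt2 (0.07, SE 0.06) and Tnni3 (-0.16, SE 0.06) and the calcium pump gene Atp2a2 (-0.09, SE 0.04) did not pass. The highest value of any array was 13.49, and Tnnt2 read 13.49 in MCAO replicate 6, so a rise beyond that level could not be seen. Myh6, at 12.78 to 12.94 in sham hearts, also lay near the top of the scale. How far this narrows its change was not tested.

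**Figure D2:**
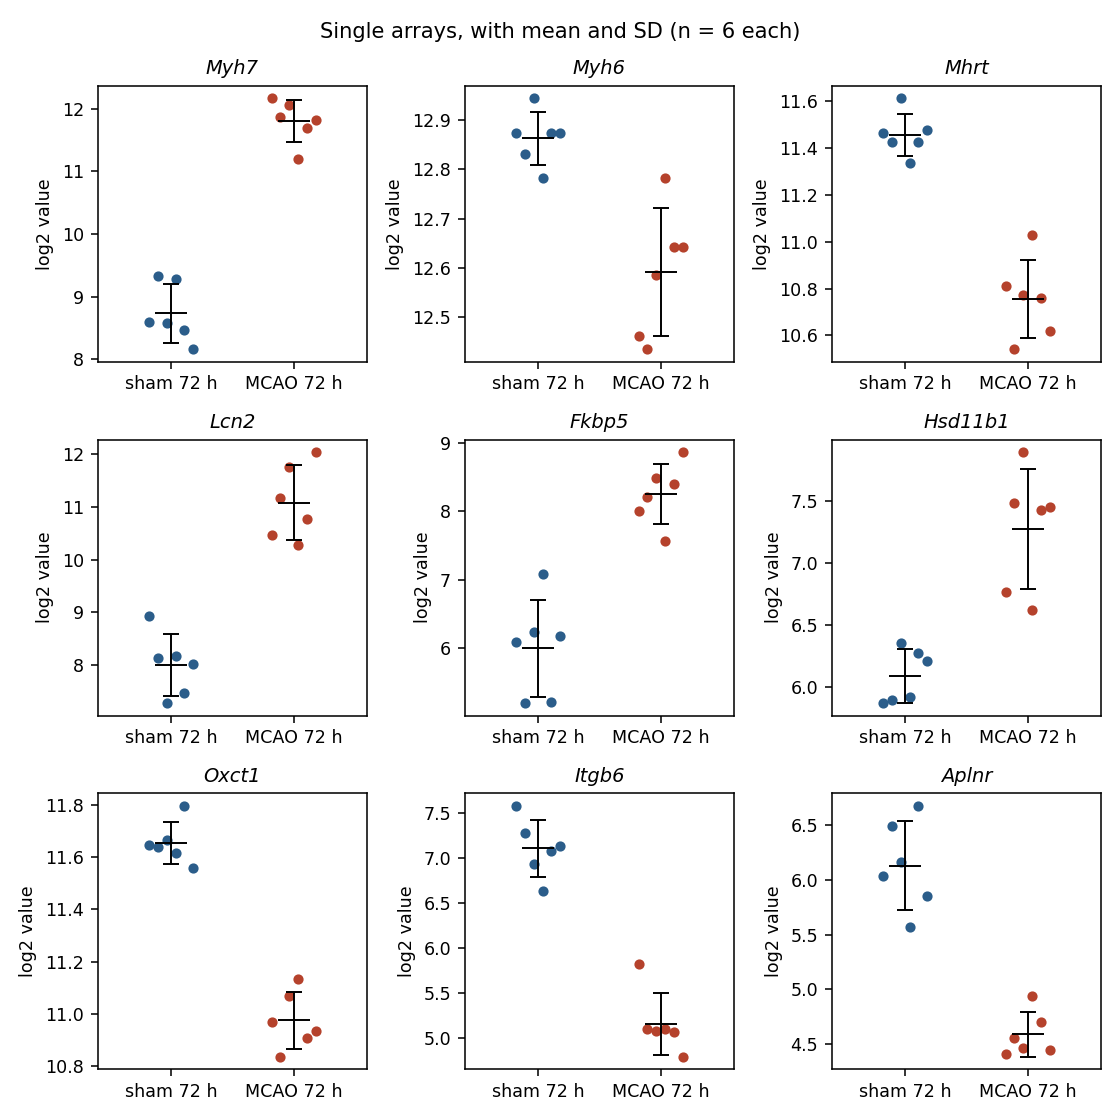
Each panel shows the deposited log2 values of 1 gene, with 1 point per array (6 sham, blue; 6 MCAO, red) and the mean with its SD in black; the vertical axes differ between panels. Of the 9 genes shown, Myh6 alone has an MCAO array that reaches the sham range.

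Natriuretic peptides themselves did not pass. Nppa, the atrial peptide, ranged from 11.42 to 13.01 in sham and from 11.83 to 12.91 in MCAO hearts, and Nppb from 9.49 to 11.27 and from 9.95 to 10.66, with all 6 MCAO hearts inside the sham range for both. Of the 10 genes of this system 4 rose and 0 fell, against 3.06% of all genes that rose; 0 passed in the fit of all 24 arrays, where the adjusted p was 0.0853 for Corin, 0.0714 for Furin, 0.0876 for Prkg1 and 0.137 for Npr3. Corin, the protease that activates the atrial peptide, rose by 0.62 (SE 0.11, adjusted p = 0.0068), and Furin, another protease gene of the list, by 0.35 (SE 0.07). Prkg1, the cyclic GMP kinase downstream, rose by 0.40 (SE 0.09), and the clearance receptor gene Npr3 by 0.63 (SE 0.15, adjusted p = 0.0243; 0.0559 without sham replicate 5).

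Listed targets of the glucocorticoid receptor were higher, most of them past the threshold. Of 26 targets 19 rose (73.1%, against 3.06% of all genes) and 0 fell, and all 26 had a positive log2 change, with a median of 0.73. This list was chosen with earlier results of these data known, so its share is not independent of these data. It holds Lcn2, Fkbp5 and Fam107a, which are among the 15 highest called changes. Fkbp5, a co-chaperone that lowers the receptor's affinity for hormone, ranged from 5.21 to 7.08 (median 6.13) in sham and from 7.57 to 8.86 (median 8.30) in MCAO hearts, with no overlap. It was 4.77-fold higher (log2 change 2.25, SE 0.30, adjusted p = 0.00104). Fam107a, an actin-binding stress response gene, ranged from 4.97 to 5.50 in sham and from 6.28 to 7.20 in MCAO hearts and rose by 1.52 (SE 0.16, adjusted p = 0.00036). Lcn2, which encodes the iron-siderophore carrier lipocalin 2, ranged from 7.28 to 8.93 (median 8.08) in sham and from 10.28 to 12.04 (median 10.97) in MCAO hearts (8.45-fold, log2 change 3.08, SE 0.33, adjusted p = 0.00036). Lcn2 belongs to the list of acute phase and IL-6 family genes as well. Of the 22 measured genes of that list 3 rose, against 3.06% of all genes, and 0 fell. The count of rises was 5 without MCAO replicate 4 and 1 in the fit of all 24 arrays. Lcn2 is also a granule protein of neutrophils. Of 14 neutrophil markers 12 lay under the receptor level given above in both groups and 0 passed, and their summed level ran from 7.42 to 7.53 in sham and from 7.44 to 7.63 in MCAO hearts. The neutrophil genes S100a8 and Ly6g read at most 3.55 and 3.44 in any of the 12 arrays. The parts of neutrophils and of an acute phase response in the Lcn2 values were not tested. The metallothioneins Mt1 (0.47, SE 0.06) and Mt2 (0.94, SE 0.17) and the clock gene Per1 (0.94, SE 0.17) rose as well. Ddit4, an inhibitor of mTORC1, ranged from 4.72 to 7.67 in sham and from 7.41 to 8.46 in MCAO hearts (log2 change 1.61, SE 0.41, adjusted p = 0.0344), a call that ended without any 1 of 7 arrays. Tsc22d3 (0.34, SE 0.10, adjusted p = 0.0828) and Pdk4 (1.09, SE 0.49, adjusted p = 0.254), both well-known targets, did not pass.

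The start regions of 3 of these genes are shown because they held the shorter form of the glucocorticoid response element, 1 complete hexamer with the first letters of the other, on either strand. This was true of 3 of the 18 called targets with a window (16.7%) and of 73 of 18112 measured genes (0.403%). The shorter form was also found in 3 of all 23 targets with a window. Among all called genes it was found in 5 of 592 that rose, these 3 included, and in 1 of 552 that fell. The list was made of receptor targets, with earlier results of these data known. Binding of the receptor to these windows was not tested. The full palindrome of both hexamers, which contains the shorter form, was found in 2 of the 18112 genes, 1 of them Sgk1. Windows are the 250 bases before a start, 5′ to 3′ (RefSeq, GRCm38.p6), at chr10:21993640-21993889 on the plus strand for Sgk1, 1 of its 6 listed starts, at chr14:8309778-8310027 on the minus strand for Fam107a and at chr5:103629404-103629653 on the minus strand for Slc10a6. Genes with several starts had more bases searched. Capitals mark the motif.
Sgk1: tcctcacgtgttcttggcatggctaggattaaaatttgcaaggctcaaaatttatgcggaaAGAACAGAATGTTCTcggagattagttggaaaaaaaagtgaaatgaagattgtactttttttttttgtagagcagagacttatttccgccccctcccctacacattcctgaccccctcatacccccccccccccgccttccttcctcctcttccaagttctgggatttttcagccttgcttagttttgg
Fam107a: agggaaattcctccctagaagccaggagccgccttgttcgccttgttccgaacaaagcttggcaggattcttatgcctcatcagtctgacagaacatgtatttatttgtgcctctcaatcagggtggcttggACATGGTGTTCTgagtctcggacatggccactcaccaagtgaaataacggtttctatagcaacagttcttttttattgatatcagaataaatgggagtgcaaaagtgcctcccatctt
Slc10a6: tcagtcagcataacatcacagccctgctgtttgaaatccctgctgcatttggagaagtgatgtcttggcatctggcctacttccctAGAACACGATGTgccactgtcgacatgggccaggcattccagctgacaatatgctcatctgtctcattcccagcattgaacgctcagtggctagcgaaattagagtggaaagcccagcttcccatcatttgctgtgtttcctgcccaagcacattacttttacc
Sgk1, the kinase that carries the full palindrome, ranged from 6.27 to 6.91 in sham and from 7.13 to 7.40 in MCAO hearts and rose by 0.62 (SE 0.09, adjusted p = 0.00173). Slc10a6, a carrier of sulfated steroids, rose by 1.33 (SE 0.20, adjusted p = 0.00232), with 1 MCAO heart inside the sham range.

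The receptor and the enzymes that supply its hormone changed in different directions. Nr3c1, the receptor itself, ranged from 7.91 to 8.12 in sham and from 7.47 to 7.90 in MCAO hearts and fell by 0.41 (SE 0.07, adjusted p = 0.00503). The receptor's co-chaperone Fkbp4, which favours its movement to the nucleus, ranged from 9.47 to 10.06 and from 8.82 to 9.19 and fell by 0.84 (SE 0.10, adjusted p = 0.000616), opposite to Fkbp5. Hsd11b1 ranged from 5.87 to 6.36 in sham and from 6.62 to 7.89 in MCAO hearts, with no overlap, and rose by 1.18 (SE 0.19, adjusted p = 0.00318). H6pd, which supplies NADPH to that enzyme, rose by 0.22 (SE 0.06, adjusted p = 0.0429), a call that ended without any 1 of 10 arrays and in the fit of all 24 (adjusted p = 0.557). The mineralocorticoid receptor gene Nr3c2 (-0.13, SE 0.12) did not pass.

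In the lists of p53 targets, autophagy, atrophy and FoxO targets, insulin signalling and the Bcl2 family more genes rose than fell, against 3.06% up and 2.81% down over all genes. Cdkn1a, which encodes the cell cycle inhibitor p21 and belongs to both the steroid and the p53 lists, ranged from 7.46 to 9.72 in sham and from 9.74 to 10.76 in MCAO hearts (log2 change 1.73, SE 0.34, adjusted p = 0.00919). Of 24 p53 targets 4 rose and 2 fell, with 10 members higher, 14 lower and a median of -0.04. Trp53inp1, a stress protein that also acts in autophagy, ranged from 5.22 to 5.80 and from 6.07 to 7.65 and rose by 1.62 (SE 0.22, adjusted p = 0.00122), whereas Ccng1 fell by 0.37 (SE 0.07). Of 30 autophagy and mitophagy genes 7 rose and 0 fell, and 2 rose in the fit of all 24 arrays. They included Atg13, a subunit of the kinase complex that starts autophagy, which ranged from 8.51 to 9.04 in sham and from 9.53 to 10.09 in MCAO hearts (0.99, SE 0.11, adjusted p = 0.000372). The mitophagy receptor gene Bnip3 rose by 1.16 (SE 0.17, adjusted p = 0.00203) and Pink1, a kinase that marks damaged mitochondria, by 0.38 (SE 0.06, adjusted p = 0.004; 0.184 in the fit of all 24 arrays). Of 17 atrophy and FoxO targets 7 rose and 0 fell, and 4 rose without MCAO replicate 2, 4, 5 or 6 or sham replicate 4 and 3 in the fit of all 24 arrays. The highest change of both this list and the autophagy list was that of Bnip3, so their counts are not independent. Cited2, a transcriptional co-regulator, ranged from 9.07 to 9.43 and from 9.73 to 10.02 and rose by 0.59 (SE 0.07, adjusted p = 0.000618). Of 27 insulin and mTORC1 genes 5 rose and 0 fell, among them Pik3r1 (0.54, SE 0.10) and Tsc1 (0.36, SE 0.07), and 3 rose without MCAO replicate 2, 3, 5 or 6 or sham replicate 5 and in the fit of all 24 arrays. In the Bcl2 family both the protective gene Bcl2l1 (0.88, SE 0.10, adjusted p = 0.000629) and the death-promoting Bcl2l11 (0.42, SE 0.08, adjusted p = 0.0088; 0.0909 in the fit of all 24 arrays) rose, and 0 of 15 fell.

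**Figure D3:**
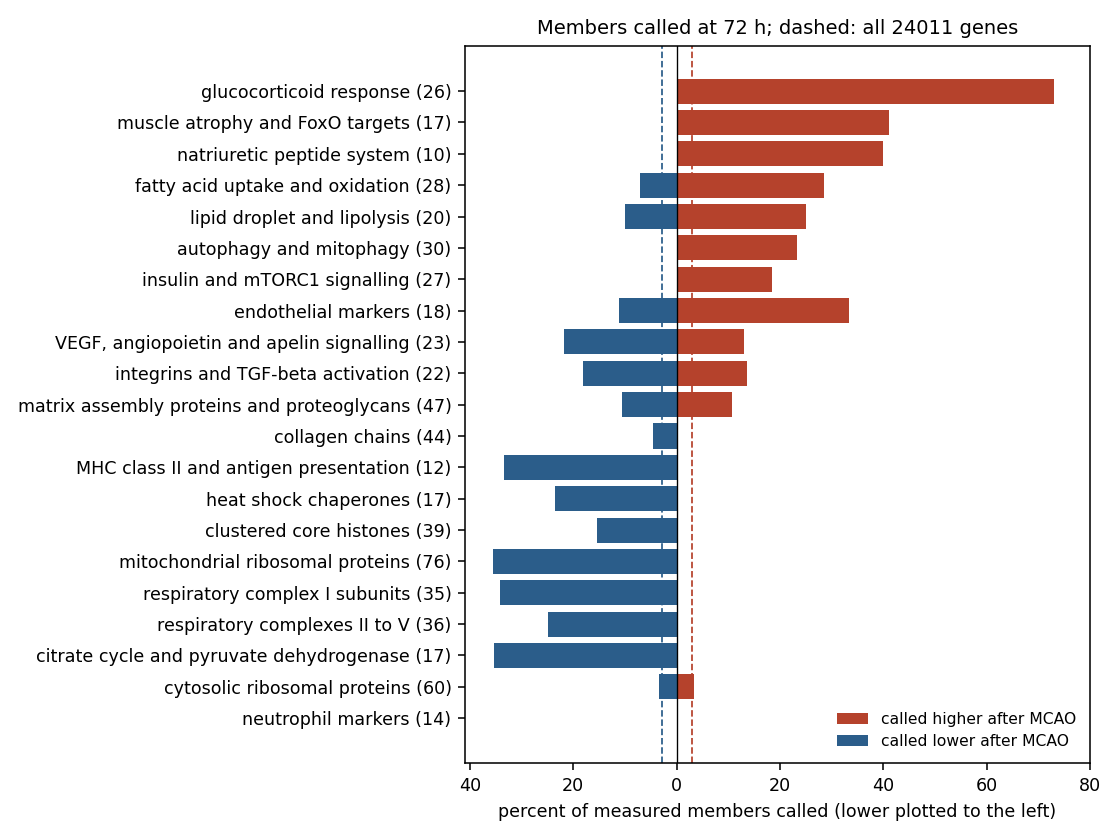
Bars give the percentage of the measured members of each gene list (number in brackets) that were called higher (red, right) or lower (blue, left) after MCAO at 72 h. Dashed lines mark 3.06% up and 2.81% down among all 24011 genes. The glucocorticoid response list has 19 of 26 members up, and the mitochondrial ribosomal list 27 of 76 down. The lists were chosen with earlier results of these data known.

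Genes of the mitochondrial ribosome, the respiratory chain and the citrate cycle were lower. Of 76 mitochondrial ribosomal protein genes 27 fell and 0 rose, against 2.81% of all genes that fell, and 70 of 76 had a negative change with a median of -0.28. Mrpl13 ranged from 7.06 to 7.61 (median 7.19) in sham and from 6.18 to 6.53 (median 6.46) in MCAO hearts and fell by 0.82 (SE 0.09, adjusted p = 0.000371). Mrpl53 ranged from 8.99 to 9.40 and from 8.38 to 8.66 and fell by 0.63 (SE 0.07, adjusted p = 0.000455). Mrpl3 fell by 0.73 (SE 0.08; adjusted p = 0.424 in the fit of all 24 arrays) and Mrpl43 by 0.51 (SE 0.06), and for these 4 genes no MCAO heart reached the sham range. The count was 20 to 28 when 1 array was left out, 22 without sham replicates 2 and 3 and 9 in the fit of all 24 arrays. Of 60 cytosolic ribosomal protein genes 2 rose and 2 fell (6.67%, against 5.87% of all genes), with 1 each way when most single arrays were left out. Their median sham level was 4.38, against 7.54 for the mitochondrial ribosomal genes. That is close to the 3.93 under which 95% of receptor genes lay, so their few calls are a weak comparison. The difference between both ribosomal lists was not tested. Rpl3l, a muscle form of a large subunit protein, was 1 of those that fell (-0.63, SE 0.11, adjusted p = 0.00448).

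The start regions of Mrpl53 and Mrpl43 are shown because they held the letters CCGGAAG, the core bound by ETS factors, on either strand. The motif was found in 9 of 25 mitochondrial ribosomal genes that fell (36.0%), in 16 of 67 measured with a window (23.9%), in 12.3% of all genes that fell and in 9.91% of the 18112 genes. Windows are as above, at chr6:83108858-83109107 on the plus strand and chr19:45006443-45006692 on the minus strand (GRCm38.p6), with the motif in capitals.
Mrpl53: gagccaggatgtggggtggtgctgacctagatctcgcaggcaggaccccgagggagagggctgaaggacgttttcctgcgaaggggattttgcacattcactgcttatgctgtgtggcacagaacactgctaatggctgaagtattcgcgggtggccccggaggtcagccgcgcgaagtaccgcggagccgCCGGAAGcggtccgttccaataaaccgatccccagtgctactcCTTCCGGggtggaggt
Mrpl43: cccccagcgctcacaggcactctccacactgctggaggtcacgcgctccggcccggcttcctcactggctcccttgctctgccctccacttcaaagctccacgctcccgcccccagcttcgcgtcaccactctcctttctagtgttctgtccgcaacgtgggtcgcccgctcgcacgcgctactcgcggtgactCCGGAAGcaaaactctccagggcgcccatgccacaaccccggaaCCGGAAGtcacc
Other motifs searched in the same windows on both strands were AGGTCA (thyroid hormone receptor core), TCAAGGTCA (estrogen-related receptor, which contains the former), the NRF1 site, TTATGTAA (D-box) and CACGTG (E-box). They were found in 14.5%, 0.331%, 1.18%, 0.922% and 7.73% of the measured genes. Of the 25 mitochondrial ribosomal genes that fell they were found in 3, 0, 1, 0 and 2.

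The counts of this paragraph are to be read against 2.81% of all genes that fell and 3.06% that rose. Of 35 complex I subunit genes 12 fell and 0 rose, and 34 of 35 had a negative change with a median of -0.19. The count of falls was 5 to 7 without MCAO replicate 2, 5 or 6 or sham replicate 6 and 6 in the fit of all 24 arrays. Ndufs8, an iron-sulfur subunit, ranged from 10.82 to 11.17 in sham and from 10.11 to 10.51 in MCAO hearts and fell by 0.64 (SE 0.08, adjusted p = 0.00086). Of 36 genes of complexes II to V 9 fell and 0 rose (median -0.23), with Cyc1, the heme subunit of complex III, at -0.53 (SE 0.09, adjusted p = 0.00466). Of 17 genes of the citrate cycle and pyruvate dehydrogenase 6 fell and 0 rose, among them Dlst (-0.33, SE 0.05) and Idh3a (-0.28, SE 0.05), and the groups did not overlap for either. In the fit of all 24 arrays 6 genes of complexes II to V and 3 of the citrate cycle fell. Sod2, the superoxide dismutase of mitochondria, ranged from 11.91 to 12.11 and from 11.67 to 11.79 and fell by 0.30 (SE 0.04, adjusted p = 0.00152). The chaperonin pair of the mitochondrial matrix, Hspd1 (-0.24, SE 0.04) and Hspe1 (-0.69, SE 0.11), fell too, with adjusted p = 1.0 and adjusted p = 0.0745 in the fit of all 24 arrays. The cardiomyocyte markers, which share their cells with these genes, had a summed level of 16.36 to 16.48 in sham and 16.21 to 16.37 in MCAO hearts. Of those 14 markers 3 fell and 0 rose, and 1 fell in the fit of all 24 arrays; their part in the lower mitochondrial genes was not tested.

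**Figure D4:**
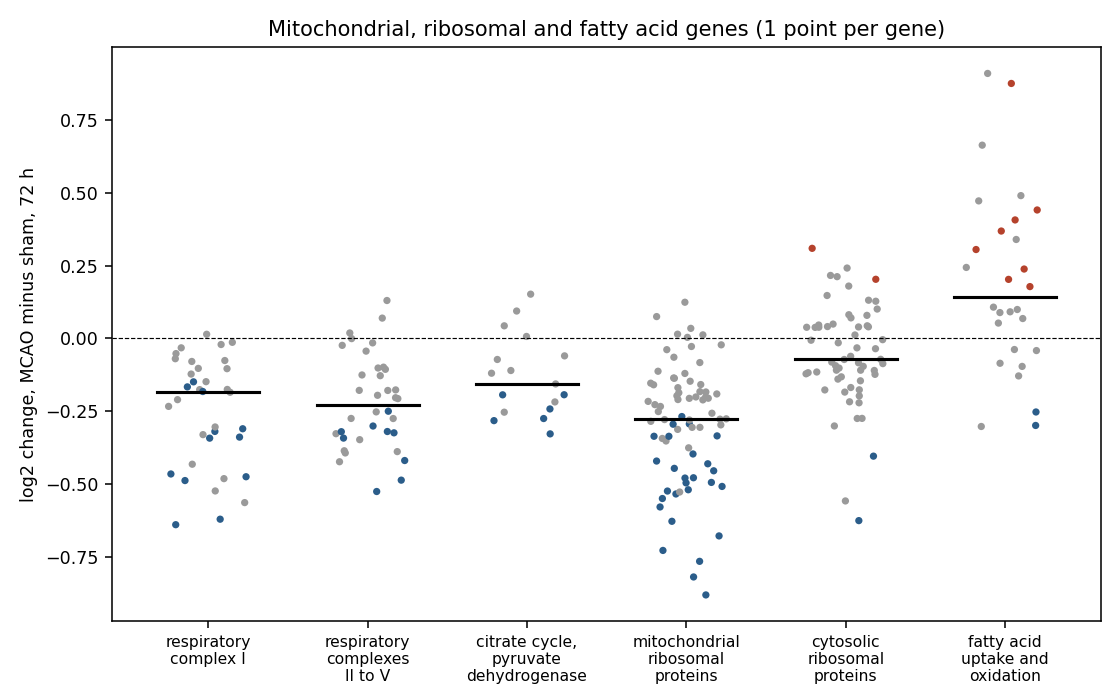
Each point is 1 gene, and the vertical axis gives its log2 change (MCAO minus sham, 72 h); red and blue points passed the test upward and downward, grey points did not, and black bars are list medians. The median of mitochondrial ribosomal genes lies at -0.28, that of cytosolic ribosomal genes at -0.07 and that of fatty acid genes at 0.14. The cytosolic ribosomal genes had a median sham level of 4.38, against 7.54 for the mitochondrial ribosomal genes.

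Genes of ketone, glucose, amino acid and fat use were called in both directions, against 3.06% up and 2.81% down over all genes. Of 5 ketone body genes 2 fell and 0 rose: Oxct1, which activates acetoacetate, ranged from 11.56 to 11.80 in sham and from 10.84 to 11.13 in MCAO hearts (-0.68, SE 0.06, adjusted p = 0.000145), and Bdh1, which oxidises hydroxybutyrate, from 7.48 to 8.17 and from 6.15 to 7.25 (-1.16, SE 0.19, adjusted p = 0.00358). Of 25 glycolysis and glucose genes 4 fell and 1 rose, with 14 lower and 11 higher. Eno3, the muscle enolase, ranged from 12.30 to 12.46 and from 11.05 to 11.79 and fell by 0.94 (SE 0.10, adjusted p = 0.000372), and the muscle forms Hk2 (-0.63, SE 0.11) and Pgam2 (-0.64, SE 0.11) also fell. Gpt, an alanine transaminase that links amino acids to pyruvate, fell by 1.01 (SE 0.13, adjusted p = 0.000989). In branched-chain amino acid breakdown Hibch fell by 0.60 (SE 0.07, adjusted p = 0.000439), with 3 of 20 genes down and 1 up. The count of falls was 6 without sham replicate 2 and 5 without MCAO replicate 4, and that of rises 0 without any 1 of 7 arrays. Of 28 fatty acid genes 8 rose and 2 fell. The count of rises was 5 without MCAO replicate 2, 5 or 6 or sham replicate 6 and in the fit of all 24 arrays, and 4 without sham replicates 2 and 3 together. The count of falls was 1 without MCAO replicate 5. Decr1, an auxiliary enzyme of the oxidation of unsaturated fats, ranged from 9.77 to 10.09 and from 10.22 to 10.54 and rose by 0.44 (SE 0.07, adjusted p = 0.00214). The uptake gene Slc27a1 rose by 0.88 (SE 0.15, adjusted p = 0.00527). Of 20 lipid droplet genes 5 rose and 2 fell, 1 without any 1 of 9 arrays. Pnpla2, the main triglyceride lipase, ranged from 10.40 to 10.74 and from 11.15 to 11.75 (0.81, SE 0.10, adjusted p = 0.000659), and the droplet coat gene Plin4 from 8.07 to 8.57 and from 8.80 to 9.53 (0.89, SE 0.12, adjusted p = 0.00111). Scd4, a desaturase with close paralogs whose probes may share signal, ranged from 4.40 to 5.20 and from 5.50 to 7.55 and rose by 1.67 (SE 0.32, adjusted p = 0.00842).

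Of 20 calcium handling genes 3 fell and 0 rose, against 2.81% and 3.06% of all genes: Casq2, the calcium-binding protein of the sarcoplasmic reticulum (-0.39, SE 0.07, adjusted p = 0.00593), Hrc, its histidine-rich partner (-0.69, SE 0.15, adjusted p = 0.0165), and the kinase gene Camk2d (-0.33, SE 0.08, adjusted p = 0.0243), whose call ended without any 1 of 5 arrays and in the fit of all 24 (adjusted p = 0.59). The pump gene Atp2a2, given above, did not pass. Casq2 ranged from 11.08 to 11.59 in sham and from 10.90 to 11.07 in MCAO hearts. Of 21 potassium channel genes 3 fell and 1 rose, and 1 fell without MCAO replicate 2, 5 or 6 or sham replicate 1, 3 or 5. Kcnd2 (-0.88, SE 0.22, adjusted p = 0.0327) and Kcnip2 (-0.66, SE 0.15, adjusted p = 0.0229) encode the pore and a partner of the transient outward current. The call of Kcnd2 ended without any 1 of 5 arrays and that of Kcnip2 without sham replicate 5. Kcna5, the pore of the ultrarapid current, rose by 0.56 (SE 0.12, adjusted p = 0.0145) and belongs to the atrial markers as well. The sodium and pacemaker channel genes had 0 of 7 calls. Gja1, the ventricular gap junction gene, ranged from 10.37 to 10.72 and from 9.79 to 10.44 (-0.40, SE 0.11, adjusted p = 0.0454), a call that ended without any 1 of 9 arrays and in the fit of all 24 (adjusted p = 0.0545). It was the 1 fall in a list of 14 intercalated disc genes, of which 2 rose. Of these 14 genes 12 were higher and 2 lower, with a median of 0.09, and 0 passed in the fit of all 24 arrays.

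Of 23 genes of VEGF, angiopoietin and apelin signalling 5 fell and 3 rose, against 2.81% and 3.06% of all genes, with 12 members lower, 11 higher and a median of -0.01. The count of rises was 1 in the fit of all 24 arrays. Aplnr, the apelin receptor of endothelial and muscle cells, ranged from 5.56 to 6.68 (median 6.10) in sham and from 4.41 to 4.94 (median 4.51) in MCAO hearts and was 2.91-fold lower (-1.54, SE 0.17, adjusted p = 0.00036). Kdr, the main receptor for VEGF, ranged from 9.40 to 10.02 and from 8.67 to 9.24 and fell by 0.68 (SE 0.12, adjusted p = 0.0062). The VEGF co-receptors Nrp1 (-0.73, SE 0.08, adjusted p = 0.00036) and Nrp2 (-0.62, SE 0.10, adjusted p = 0.00388) fell as well, while Angpt1, a ligand that stabilises vessels, rose by 0.90 (SE 0.16, adjusted p = 0.00612; 0.0654 in the fit of all 24 arrays). Of 18 endothelial markers 6 rose and 2 fell, with 1 fall without MCAO replicate 2 or 5 or sham replicate 1 or 5, and 3 rises and 1 fall in the fit of all 24 arrays. Pecam1, a junction protein of all endothelium, ranged from 9.18 to 9.39 and from 9.45 to 9.70 and rose by 0.29 (SE 0.05, adjusted p = 0.00613), and the transcription factor gene Sox17 rose by 0.43 (SE 0.08, adjusted p = 0.00613). Cdh5, the endothelial cadherin, did not pass (0.09, SE 0.06). The summed level of the 18 markers overlapped between groups, at 12.44 to 12.61 in sham and 12.53 to 12.65 in MCAO hearts.

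Matrix and fibroblast genes were called in both directions, against 3.06% up and 2.81% down over all genes. In the collagen, other matrix and fibroblast lists, but not in the integrin list, more members were lower than higher. Itgb6, the integrin subunit that activates latent TGF-beta, ranged from 6.63 to 7.58 (median 7.11) in sham and from 4.79 to 5.83 (median 5.09) in MCAO hearts and was 3.87-fold lower (-1.95, SE 0.17, adjusted p = 0.000147). The collagen receptor subunit gene Itga1 fell by 0.46 (SE 0.07) and the laminin receptor subunit gene Itga6 by 0.79 (SE 0.14). In the list of integrins and TGF-beta activation 4 of 22 genes fell and 3 rose, and 1 rose without MCAO replicate 5 and in the fit of all 24 arrays. Of these 22 genes 12 were higher and 10 lower, with a median of 0.04. Of 44 collagen chains 2 fell and 0 rose (4.55%), near the share over all genes, and 4 fell without sham replicate 6. Col3a1 ranged from 6.24 to 8.55 (median 6.74) in sham and from 5.31 to 6.14 (median 5.36) in MCAO hearts (-1.45, SE 0.31, adjusted p = 0.0155). The sham array at 8.55 was replicate 2, which was also highest for Col14a1 (-0.77, SE 0.17, adjusted p = 0.0184) and Col1a1 (-0.91, SE 0.29, adjusted p = 0.0936). Of 47 other matrix genes 5 rose and 5 fell, with 32 lower, 15 higher and a median of -0.17, and 3 fell in the fit of all 24 arrays. Thbs2, a matricellular inhibitor of vessel growth, ranged from 6.38 to 7.04 and from 7.57 to 8.27 and rose by 1.22 (SE 0.15, adjusted p = 0.000697). Ccn2, the connective tissue growth factor gene, rose by 1.05 (SE 0.23, adjusted p = 0.0167), while Ogn (-0.49, SE 0.05, adjusted p = 0.00036; 0.0879 in the fit of all 24 arrays), a small proteoglycan gene, and Serpinh1 (-0.78, SE 0.14, adjusted p = 0.00702), the collagen chaperone gene, fell. Of 18 fibroblast markers 3 rose and 4 fell, with 13 lower and a median of -0.24, and 2 fell without MCAO replicate 2 and in the fit of all 24 arrays. Dpep1, a dipeptidase, ranged from 7.57 to 8.56 and from 9.20 to 9.80 and rose by 1.36 (SE 0.15), and Cd248 fell by 0.73 (SE 0.13). The summed level of the fibroblast markers overlapped, at 13.26 to 13.65 in sham and 13.33 to 13.66 in MCAO hearts. That sum is carried by the brightest markers, and the mean log2 value of the 18 ran from 7.53 to 8.14 in sham and from 7.45 to 7.84 in MCAO hearts; their part in the lower matrix genes was not tested.

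In the lists of immune cells and antigen presentation the called genes were lower, apart from Mertk. Among 12 antigen presentation genes, mostly of MHC class II, 4 fell and 0 rose, against 2.81% and 3.06% of all genes. H2-Ab1, a class II beta chain, ranged from 7.97 to 8.82 (median 8.37) in sham and from 6.67 to 7.69 (median 7.05) in MCAO hearts (-1.29, SE 0.17, adjusted p = 0.00104), and Cd74, the invariant chain, from 9.36 to 10.34 and from 8.31 to 9.18 (-1.02, SE 0.19, adjusted p = 0.00625). Of 27 monocyte and macrophage markers 2 fell and 1 rose, and 4 fell without sham replicate 2 or 4. The resident macrophage genes Folr2 (-1.21, SE 0.18, adjusted p = 0.0018) and Cbr2 (-0.84, SE 0.13, adjusted p = 0.00263) fell, with no overlap of the groups, and Mertk, a receptor for the uptake of dying cells, ranged from 5.99 to 6.36 and from 6.67 to 6.95 and rose by 0.57 (SE 0.06, adjusted p = 0.000387). The general macrophage genes Csf1r (-0.14, SE 0.11) and Adgre1 (-0.35, SE 0.18) did not pass. The summed level of the 27 markers ran from 11.80 to 12.48 in sham and from 11.59 to 12.10 in MCAO hearts, so its overlap was partial; its part in the lower class II genes was not tested. The B cell gene Ighm fell by 0.84 (SE 0.17, adjusted p = 0.00966). Of 8 B cell, 9 T cell and 8 natural killer cell markers no other passed. Of 24 interferon-stimulated genes 2 fell (8.33%), and 0 or 1 without any 1 of 8 arrays, while 23 of 24 were lower with a median of -0.31. Their summed level ran from 10.03 to 11.23 in sham and from 9.63 to 10.17 in MCAO hearts, and sham replicate 2 at 11.23 stood above the next sham array at 10.24; its part in the median was not tested. The chemokine gene Cxcl12 (-0.40, SE 0.08) and the chemokine receptor gene Cx3cr1 (-0.38, SE 0.07) fell, the called genes of a list of 30 (6.67%, near the 5.87% of all genes). In the fit of all 24 arrays 0 of that list fell, with adjusted p = 0.0641 and adjusted p = 0.157.

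Stress, chromatin and clock genes gave small counts, to be read against 3.06% up and 2.81% down over all genes. Of 17 heat shock chaperone genes 4 fell and 0 rose, and 2 fell in the fit of all 24 arrays. The lowest p was that of Hsph1, a partner of Hsp70, which ranged from 6.14 to 7.09 and from 5.19 to 5.84 (-1.10, SE 0.16, adjusted p = 0.0018). Of 25 antioxidant genes 6 rose and 2 fell, 1 without any 1 of 8 arrays. The quinone reductase gene Nqo1 ranged from 7.93 to 8.18 and from 8.62 to 9.34 and rose by 0.71 (SE 0.11, adjusted p = 0.00232). Of 27 endoplasmic reticulum stress genes 3 rose and 0 fell, led by the sensor gene Atf6 (0.44, SE 0.06, adjusted p = 0.00183). Of 39 clustered histone genes 6 fell and 0 rose, with H2bc13 (-0.79, SE 0.10) and H2bc4 (-0.56, SE 0.08) among them. H2bc7 ranged from 4.88 to 6.76 in sham and from 3.98 to 5.07 in MCAO hearts (-1.21, SE 0.30, adjusted p = 0.0338), a call that ended without any 1 of 7 arrays. These copies are near-identical, so their single values are uncertain. Of 29 cell cycle and replication genes 0 passed in limma, where 735 genes rose and 675 fell in all. Of these 29 genes 26 were lower, with a median of -0.09. Their median sham level of 4.08 was near the 3.93 under which 95% of receptor genes lay. Sham replicate 2 had the highest mean log2 value of the list, 4.64. Without it 2 of the genes fell, and without sham replicate 3 1 fell. Among the 20 clock genes, Dbp, a transcription factor with strong daily rhythm, ranged from 9.66 to 10.48 in sham and from 8.71 to 9.26 in MCAO hearts (-1.09, SE 0.14, adjusted p = 0.00086). Bhlhe41, a clock repressor, fell by 0.55 (SE 0.07; adjusted p = 0.11 in the fit of all 24 arrays), and Per1, given above, rose. Of the list 2 rose and 2 fell, and 1 rose without any 1 of 6 arrays. In the fit of all 24 arrays 1 rose and 1 fell. The hour of collection is not in the labels used here.

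Several further changes were large. Gm12295, a long noncoding RNA, ranged from 4.76 to 5.48 (median 5.31) in sham hearts, with a median of 7.61 and a highest value of 8.19 in MCAO hearts and no overlap (2.44, SE 0.20, adjusted p = 0.000145). Spock2, a matrix proteoglycan gene (1.54, SE 0.19), Vwa3a (1.45, SE 0.20), Lrrc52, a potassium channel subunit gene (1.39, SE 0.14), and Fmo2, a flavin monooxygenase gene (1.30, SE 0.25), rose with no overlap of the groups. Map3k6, a stress kinase gene on the steroid target list, rose by 1.46 (SE 0.21) with 1 MCAO heart inside the sham range. Among genes that fell, Cmss1 ranged from 8.93 to 9.29 and from 7.09 to 8.07 (-1.47, SE 0.14, adjusted p = 0.000318), and Sh3bgr (-1.31, SE 0.15), Lrtm1 (-1.12, SE 0.16) and Ddah1, which breaks down an inhibitor of nitric oxide synthesis (-1.07, SE 0.15), fell with no overlap. Vmn1r127 (-1.14, SE 0.24; adjusted p = 0.11 in the fit of all 24 arrays) is named for a vomeronasal receptor, and its sham range of 6.65 to 7.66 lay above the level under which 95% of receptor genes fell; its probes may share signal with paralogs.

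To see what was different from the earlier time, the change at 72 h was set against the change at 24 h, each against its own 6 sham arrays, in 1 fit of all 24 arrays. The changes differed for 430 genes (1.79%), of which 36 were also called at 72 h, where 5.87% of all genes were called. Of the 5 most positive and 5 most negative among genes with a full name, 6 were not called at 72 h and had their larger change at 24 h. They were Nr4a3, given below, Lce1j (-1.90 at 24 h, 0.07 at 72 h), Mettl7a1 (-0.93 and 0.32), Mpped2 (-0.96 and 0.18), Adh1 (1.70 and 0.43) and Syt12 (1.51 and 0.27). The SD in the MCAO arrays of 24 h was 1.26 for Lce1j and 0.75 for Mettl7a1, against 0.30 and 0.27 in the sham arrays of 24 h. In this fit Myh7 had a change of 3.07 (SE 0.35) at 72 h and of 0.25 (SE 0.35) at 24 h, a difference of 2.82 (SE 0.49, adjusted p = 0.00713). Hsd11b1 had a change of 0.01 (SE 0.21) at 24 h and of 1.18 (SE 0.21) at 72 h, a difference of 1.17 (adjusted p = 0.0416). Both were thus called higher at 72 h with a change that differed from that at 24 h. In the opposite direction Dbp (difference -1.38, adjusted p = 0.033), Higd1a, a mitochondrial hypoxia gene (-1.25, adjusted p = 0.00711), Gpt (-1.07, adjusted p = 0.00994), Eno3 (-0.62, adjusted p = 0.0308), Mrpl13 (-0.58, adjusted p = 0.0221) and the lipogenic gene Thrsp (-0.84, adjusted p = 0.00713; call at 72 h ended without any 1 of 9 arrays and, at 0.0715, in the fit of all 24) were lower relative to sham at 72 h than at 24 h. The sham hearts of each time enter these differences. For Dbp the sham mean was 8.63 at 24 h and 10.13 at 72 h, and the MCAO mean 8.92 and 9.04. Thus it was mainly the sham mean of Dbp that differed between the times. Nr4a3, an immediate-early nuclear receptor gene, differed by -1.46 (adjusted p = 0.0221), with a change of 1.20 at 24 h and of -0.26 at 72 h, which did not pass. Gja1 (difference 0.72, adjusted p = 0.0218) and the tubulin gene Tuba4a (1.01, adjusted p = 0.0459), whose calls at 72 h ended without any 1 of 9 arrays and without MCAO or sham replicate 5, were lower than sham at both times, by less at 72 h. For Fkbp5 the difference of -1.02 did not pass (adjusted p = 0.231), nor did that of Lcn2 (1.62, adjusted p = 0.147), and 0 of the 26 steroid targets passed this test. The count of 430 ran from 197 to 1012 when 1 array was left out and was 118 among genes with a mean log2 of at least 5.

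**Figure D5:**
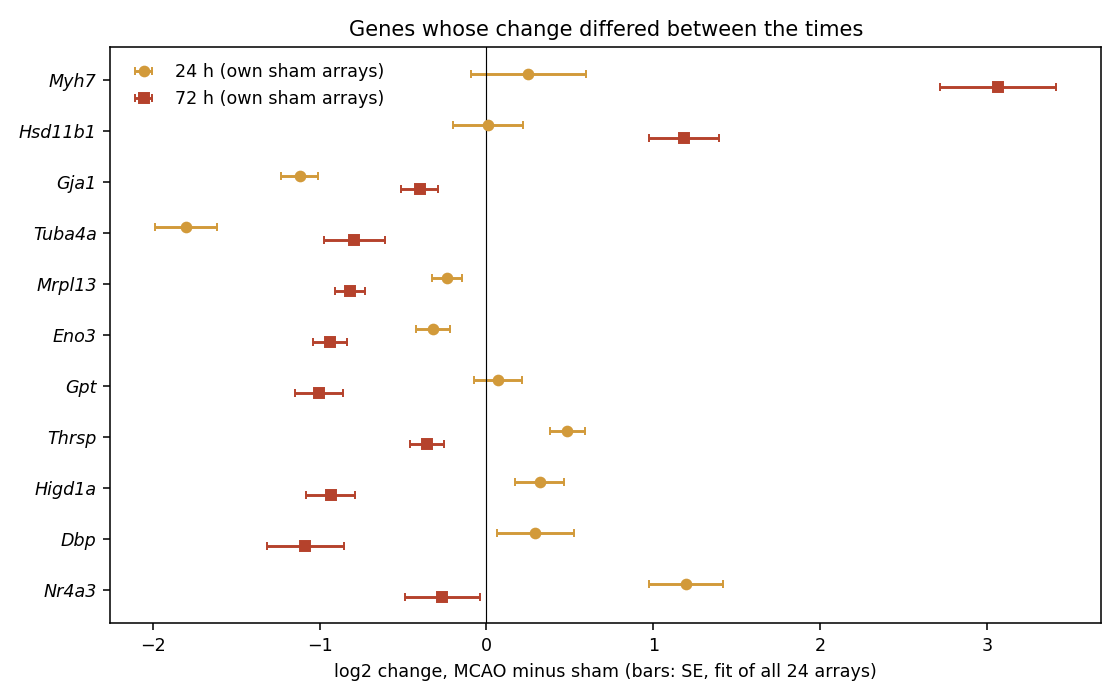
Points give the log2 change (MCAO minus sham) at 24 h (circles) and at 72 h (squares), each against its own sham arrays, with the SE from the fit of all 24 arrays as bars, for 11 genes whose changes differed between the times. Myh7 and Hsd11b1 lie near 0 at 24 h and at 3.07 and 1.18 at 72 h.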

How the data were processed

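RNA from hearts was labelled and hybridised by the standard Affymetrix protocol, per the labels' protocols. The deposited log2 values are the authors' processed expression values, 1 per gene identifier. Background correction, summarisation and build: not given in the sources used here. HOMER is named in the submitters' processing notes. The sorted values of the arrays were alike to within 0.0019, so shifts of the whole distribution between arrays cannot be seen. Of 24973 identifiers 24015 had 1 symbol and 958 are unnamed here, which left 24011 genes. Groups came from the titles. The 12 arrays of 72 h were fitted with limma 3.58.1 (R 4.3.3; lmFit, eBayes, 2 group means), with Benjamini-Hochberg adjustment over all genes, and the difference between times with all 24 arrays and 4 group means. The fit was tested on simulated data. The number of arrays, 6 a group, limits the precision. Alternatives covered the prior, scaling, dim genes, identifiers, weights, replicate block and single arrays.

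The gene lists and tests were chosen with earlier results of these data known. Genes named were drawn from the 15 highest and 15 lowest called changes, up to 4 called members of a list by p (up to 2 where none passed), the 5 highest and 5 lowest differences between times, and defining markers. Not every list member or marker that the rule allows is named. Chosen after their values were seen were Gm12295, the microRNA genes, Mhrt, Myh7b, Atp2a2, Nppa, Nppb, Tsc22d3, Pdk4, Sgk1, Nr3c2, Eno3, Gpt, Gja1 and Tuba4a. Gene symbols came from the platform annotation, and start regions and microRNAs from RefSeq (GRCm38.p6).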

Additional observations from a re-analysis of the deposited data

Results flagged for a closer look

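For the named genes and some summed marker lists, 300 groups of 6 values were looked at. Of these, 23 (7.67%), all of named genes, had an array far from the other 5 of its group, and chance flags about 1 in 20 groups. Sham replicate 2 accounted for 6 of the 23 and sham replicate 3 for 5. Sham replicate 2 was highest for Col3a1 (8.55), Col1a1 (9.14), Col14a1 (5.87) and the macrophage gene Adgre1 (6.25), and lowest for Sox17 (5.70) and Ly6g (3.15). Sham replicate 3 was highest for Hrc (10.88), Mrpl13 (7.61), Mrpl53 (9.40) and Vmn1r127 (7.66), and lowest for Des (11.53). MCAO replicate 6 was highest for Col3a1 (6.14), Col1a1 (7.42), Adgre1 (5.45) and Tnnt2 (13.49).

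Single values stood apart in other arrays. In sham hearts they were replicate 6 for Kcnd2 (9.24) and replicate 1 for Nqo1 (7.93). In MCAO hearts they were replicate 1 for Itgb6 (5.83), replicate 2 for Nqo1 (9.34) and Per1 (9.30), replicate 3 for Cxcl12 (7.98), replicate 4 for Map3k6 (6.26) and replicate 5 for Npr3 (6.66).

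The change after MCAO differed between 72 h and 24 h, by limma's test of the difference itself, for 16 named genes. It was more positive at 72 h for Myh7 (by 2.82 on the log2 scale), Lce1j (1.96), Mettl7a1 (1.26), Hsd11b1 (1.17), Mpped2 (1.14), Tuba4a (1.01) and Gja1 (0.72). It was more negative for Nr4a3 (-1.46), Dbp (-1.38), Adh1 (-1.27), Higd1a (-1.25), Syt12 (-1.25), Gpt (-1.07), Thrsp (-0.84), Eno3 (-0.62) and Mrpl13 (-0.58).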

How the results depend on the processing

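The count of 1410 called genes ran from 949 (without MCAO replicate 5) to 1340 when 1 array was left out, that of 735 rises from 484 to 707 and that of 675 falls from 465 to 675. Without sham replicates 2 and 3 together 447 genes rose. With all 24 arrays in 1 fit 565 genes were called, 280 up and 285 down. The count of 430 for the difference between times ran from 197 (without MCAO replicate 3 of 72 h) to 1012 (without MCAO replicate 1 of 24 h). It was 118 among genes with a mean log2 of at least 5, 172 without sham replicates 2 and 3 of 72 h and 1079 without MCAO replicates 5 and 6 of 24 h. The causes were not tested. The other alternatives run left these counts within 1.5 times. The uncalled changes of 3 genes turned sign: with 1 array left out, the log2 change of Sln ran from -0.68 (without MCAO replicate 5) to 0.94 (without sham replicate 6), and was also below 0 without MCAO replicate 2 or sham replicate 1, 3 or 5. That of Nppa ran from -0.0004 (without sham replicate 5) to 0.32, and that of Nppb was 0.0081 without sham replicates 2 and 3. With the replicate number as a block 1194 genes were called (615 up, 579 down), 1025 of them shared with the fit without it, and 295 for the difference. Same-numbered samples had correlations of deviations from -0.0695 to 0.1405, and 2 of 6 numbers matched best with their own, so the numbers were not taken as pairs.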
